A study of Mus musculus with 16 samples.

Results

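The genes described here are those of the vesicle trafficking machinery that appear in tables of time-of-day change in mouse duodenal eosinophils. They were chosen by symbol alone: Rab, Arf and Arl genes, sorting genes named Vps or Snx, SNARE genes (Vamp, Stx, Stxbp, Snap, Vti1), coat and cargo genes (Cop, Sec, Tmed), adaptor complex subunits and Chmp genes. In all 41 genes matched, out of 1413 genes listed in either table, namely 39 of 1340 listed for CD11c-low cells and 5 of 172 listed for CD11c-high cells. Eosinophils were sorted from the lamina propria, the connective tissue under the gut epithelium, of the mouse duodenum. The 16 libraries form 4 groups of 4: CD11c-high or CD11c-low cells (CD11c is an integrin alpha chain that marks a subset of intestinal eosinophils), each taken at ZT3 or ZT15 (zeitgeber time, counted in hours from lights on), called AM and PM in the titles. Each library came from 1000 cells. No treatment, genotype, strain or age of the mice is given in the sources used here, and nothing says that libraries of a group came from separate animals.

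Cargo moves between compartments in vesicles. Coats such as COPI and COPII, and the small GTPases of the Arf family that recruit many of them, bud a vesicle; Rab GTPases give each compartment its identity and recruit tethers; SNARE proteins, with their Sec1/Munc18 partners such as Stxbp2, fuse the membranes. Retromer, sorting nexins and the ESCRT complexes decide whether an endosomal protein is recycled or sent to the lysosome. Eosinophils store cationic proteins and cytokines in granules and release them through small secretory vesicles or by granule fusion.

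The 2 tables hold the authors' own comparison of ZT15 with ZT3 within each subset, and no value of a single library. A gene has a mean normalised count over the libraries, a log2 fold change with its error (written ± here), and an s-value. The change is read here as shrunken towards 0 and the error, headed as a standard error, as its posterior standard deviation. The s-value works like a q-value for direction: it estimates how many signs would be wrong, as a share, if all genes up to that one in the ranking were called. All listed genes have an s-value under 0.05, so a listed gene is a called gene, and the members not listed were not analysed here. "Rose" and "fell" below mean listed as higher or lower at ZT15. The direction was read from the tables' names. Since being listed depends on the measured change, the values below describe the listed members and no test was run over them. Depth of single libraries is unknown. In bulk samples a change in the share of cells of a type and a change in RNA per cell cannot be told apart.

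In CD11c-low eosinophils the listed trafficking genes were split, with 19 higher and 20 lower at ZT15. The share that fell was 51.3%, beside 47.8% of all genes listed in that table, and the share that rose was 48.7%, beside 52.2%. The split is near that of the whole table. Median log2 fold changes in the authors' deposited table were 0.36 for the members that rose and -0.43 for those that fell, beside 0.36 and -0.39 over all listed genes. A decrease of more than 0.5 in log2 was listed for 8 members (20.5% of the 39) and an increase of that size for 3 (7.69%), where the table as a whole had 12.5% and 10.8%. Of the 39, 19 (48.7%) had an s-value under 0.01, against 38.7% of the table. Each gene's own false sign rate, the chance that its listed sign is wrong, follows from successive s-values. Summed over the 39 members it was 1.73, which is the number of wrong directions to be expected among the 39.

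**Figure D1:**
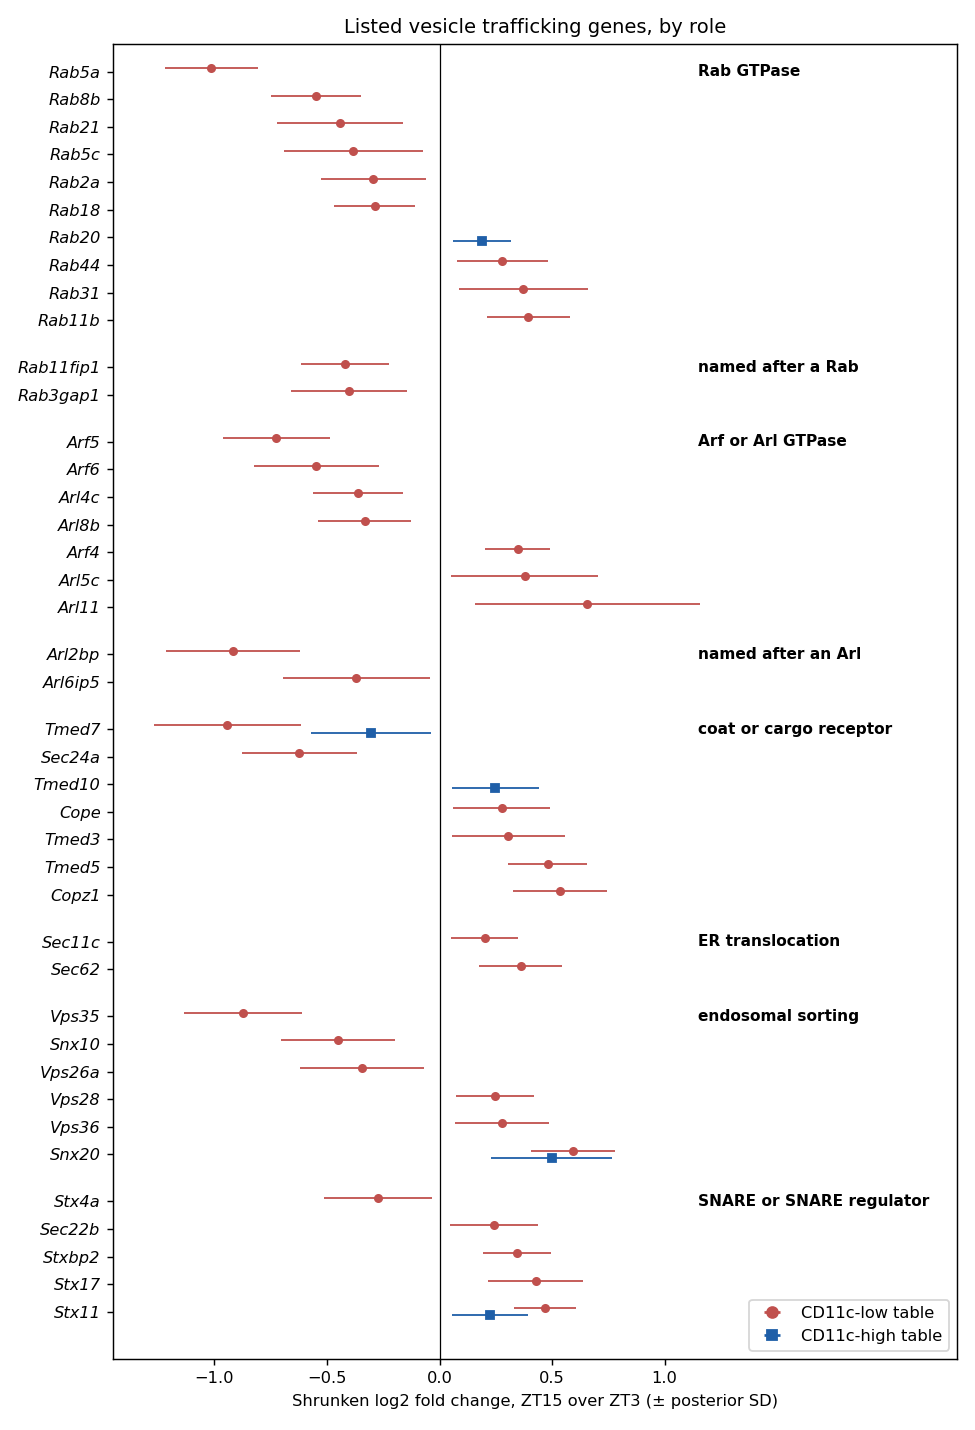
Shrunken log2 fold change at ZT15 over ZT3 (x axis, points) with its posterior standard deviation (bars) for the 41 listed genes (y axis), grouped by role; circles are the CD11c-low table and squares the CD11c-high table. For CD11c-low cells, 6 of 9 Rab GTPases lie to the left of 0 and 4 of 5 SNAREs and regulators to the right, and Rab5a is the lowest point at -1.01.

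Of the 9 Rab GTPases listed for CD11c-low cells, 6 fell and 3 rose at ZT15, where 47.8% of all listed genes fell. Rab5a (ENSMUSG00000017831.9), which drives fusion of early endosomes, had the largest decrease of any member, at -1.01 ± 0.21 on the log2 scale (s-value 6.17e-08, mean normalised count 248) in the authors' deposited table, a level 2.02-fold higher at ZT3. By s-value it ranked 8 among the 640 genes that fell. Its close relative Rab5c, at a mean normalised count of 62.4, fell by 0.38 ± 0.31 (s-value 0.0375) in the authors' deposited table. Rab21, which acts in the endosomal traffic of integrins, fell by 0.44 ± 0.28 (s-value 0.0161) in the authors' deposited table. The error of Rab5c is nearly as large as its change, whereas the change of Rab5a is several times its error.

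The remaining Rabs of the CD11c-low table went both ways. Rab8b, which acts on the route from the Golgi and recycling endosomes to the cell surface, fell by 0.55 ± 0.20 (s-value 4.02e-04, mean normalised count 803) in the authors' deposited table. Rab2a, a Rab of the early secretory pathway, fell by 0.30 ± 0.23, and Rab18, found on the endoplasmic reticulum (ER) and lipid droplets, by 0.29 ± 0.18 in the authors' deposited table. Rab3gap1, the catalytic subunit of a complex that inactivates Rab3 and activates Rab18, is no GTPase but matches by name, and it fell by 0.40 ± 0.26 in the authors' deposited table. Rab11b, a GTPase of recycling endosomes, rose by 0.39 ± 0.18 (s-value 0.00357) in the authors' deposited table, while Rab11fip1, an effector that binds Rab11 proteins, fell by 0.42 ± 0.19 (s-value 0.00324). A GTPase of this route and one of its effectors thus moved in opposite directions. Rab31, which acts between the Golgi and endosomes, rose by 0.37 ± 0.29, and Rab44, a large Rab linked to granule release in granulocytes and mast cells, rose by 0.28 ± 0.20 in the authors' deposited table.

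Among Arf and Arl GTPases listed for CD11c-low cells, 3 rose and 4 fell, where 52.2% of all listed genes rose and 47.8% fell. Arf4, a class II Arf of the Golgi, rose by 0.35 ± 0.15 (s-value 0.00178) in the authors' deposited table; its mean normalised count of 2946 was the highest of the members. The other class II member, Arf5, fell by 0.73 ± 0.24 (s-value 1.76e-04, mean normalised count 283) in the authors' deposited table. The pair of class II Arfs was thus listed with opposite signs. Arf6, the Arf of the plasma membrane and endosomal recycling, fell by 0.55 ± 0.28 (s-value 0.00531) in the authors' deposited table. Arl8b, which couples lysosomes and lytic granules to kinesin, fell by 0.33 ± 0.21, and Arl4c, which recruits Arf6 activators to the plasma membrane, by 0.36 ± 0.20 in the authors' deposited table. Arl11 (0.66 ± 0.50, s-value 0.0154, mean normalised count 64.2) and Arl5c (0.38 ± 0.33, mean normalised count 49.2) rose with wide errors in the authors' deposited table. Of the proteins named after an Arl, Arl2bp, a binding partner of Arl2, fell by 0.92 ± 0.30 (s-value 1.59e-04), a level 1.89-fold higher at ZT3, and Arl6ip5, an ER membrane protein, fell by 0.37 ± 0.33 in the authors' deposited table.

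Coat and cargo genes of the ER-Golgi route moved in both directions. Both listed COPI subunits, which coat vesicles that return from the Golgi, rose: Copz1 by 0.53 ± 0.21 (s-value 8.89e-04) and Cope by 0.28 ± 0.21 (s-value 0.0361) in the authors' deposited table. The one listed COPII component, Sec24a, which selects cargo for export from the ER, fell by 0.62 ± 0.26 (s-value 0.00127) in the authors' deposited table. The Tmed (p24) cargo receptors, which cycle between ER and Golgi, differed among themselves. Tmed5 rose by 0.48 ± 0.18 (s-value 4.78e-04, mean normalised count 1801) and Tmed3 by 0.31 ± 0.25 (mean normalised count 147) in the authors' deposited table. Tmed7 (ENSMUSG00000033184.15) fell by 0.94 ± 0.33 (s-value 2.35e-04, mean normalised count 281) in the authors' deposited table, a level 1.92-fold higher at ZT3. Both genes that act when a protein enters the ER match by name without sorting vesicles. Each rose, as did 52.2% of all listed genes: the translocon gene Sec62 by 0.36 ± 0.18 (s-value 0.00653) and the signal peptidase gene Sec11c by 0.20 ± 0.15 in the authors' deposited table.

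In endosomal sorting, the listed retromer subunits fell and the listed ESCRT subunits rose, where 47.8% of all listed genes fell and 52.2% rose. Retromer retrieves cargo from endosomes; its core subunit Vps35 (ENSMUSG00000031696.10) fell by 0.87 ± 0.26 (s-value 5.43e-05, mean normalised count 204) in the authors' deposited table, a level 1.83-fold higher at ZT3, and its partner Vps26a fell by 0.35 ± 0.28 (s-value 0.0368). The ESCRT-I subunit Vps28 rose by 0.25 ± 0.17 (s-value 0.0282) and the ESCRT-II subunit Vps36 by 0.28 ± 0.21 (s-value 0.0325) in the authors' deposited table. Each complex has further subunits that are not listed, so these pairs do not stand for whole complexes. The own false sign rates of Vps26a, Vps28 and Vps36 were 0.093, 0.074 and 0.085, beside 2.63e-04 for Vps35. The sorting nexins went apart: Snx20 (ENSMUSG00000031662.9), which binds the P-selectin ligand PSGL-1 and carries it to endosomes, rose by 0.59 ± 0.19 (s-value 1.17e-04), while Snx10, which supports endosome and vacuole formation, fell by 0.45 ± 0.25 (s-value 0.00940) in the authors' deposited table.

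Of 4 SNAREs and 1 SNARE partner listed for CD11c-low cells, 4 rose and 1 fell, where 52.2% of all listed genes rose. Stx11 (ENSMUSG00000039232.13), a syntaxin required for granule release in cytotoxic lymphocytes, rose by 0.47 ± 0.14 (s-value 4.17e-05, mean normalised count 1756) in the authors' deposited table; its s-value was the smallest among the members that rose. Stxbp2 (Munc18-2), the Sec1/Munc18 protein that binds Stx11, rose by 0.34 ± 0.15 (s-value 0.00236, mean normalised count 1033) in the authors' deposited table. Inherited loss of either gene in humans causes a familial form of hemophagocytic lymphohistiocytosis. Stx17, which fuses autophagosomes with lysosomes, rose by 0.43 ± 0.21 (s-value 0.00517), and Sec22b, a SNARE of the ER-Golgi route, by 0.24 ± 0.19 (s-value 0.0406) in the authors' deposited table. Stx4a, a syntaxin of the plasma membrane, fell by 0.27 ± 0.24 in the authors' deposited table; its s-value of 0.0488 is the closest of any member to the limit for being listed. No gene of the Vamp, Snap, Vti1, Chmp or adaptor complex families was listed in either table. These families have 7, 5, 2, 10 and 24 matching protein-coding genes in GENCODE M21. Of all protein-coding genes, 5.70% were listed in the CD11c-low table.

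**Figure D2:**
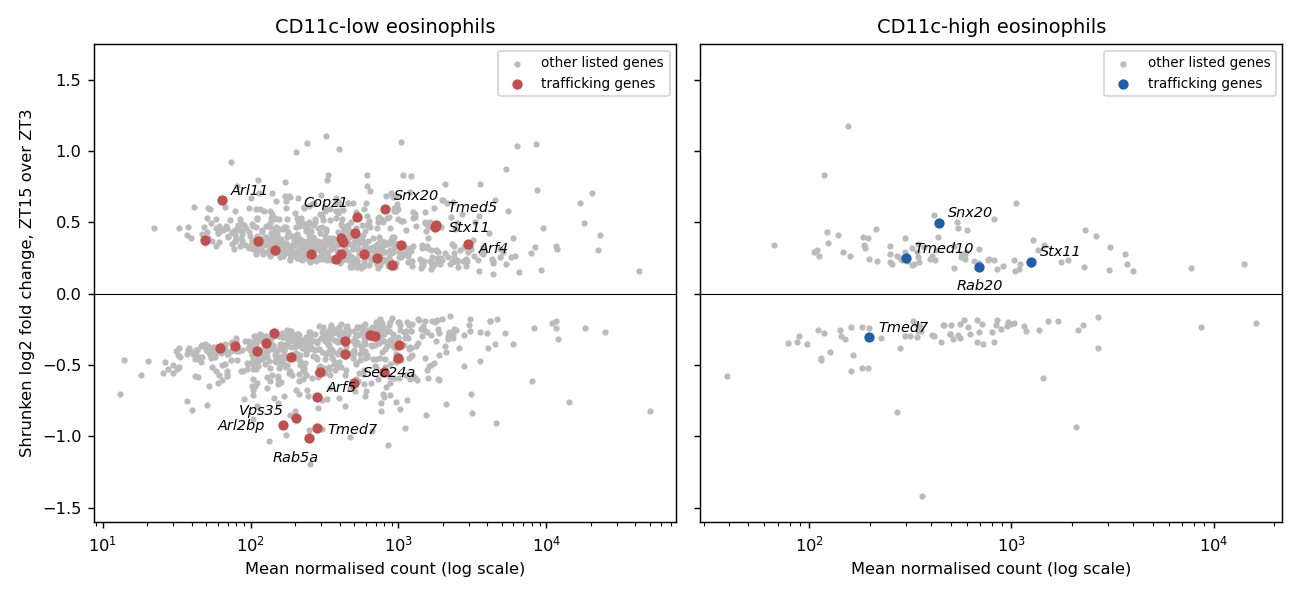
Shrunken log2 fold change at ZT15 over ZT3 (y axis) against the mean normalised count (x axis, log scale) for listed genes in CD11c-low (left) and CD11c-high (right) cells; coloured points are trafficking genes, grey points the other listed genes, and genes beyond 2 in log2 (19 and 11) are not drawn. The empty band around 0 is where genes are not listed, and Rab5a, Tmed7, Arl2bp and Vps35 form the lowest coloured points at mean normalised counts of 165 to 281.

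Members that fell in CD11c-low cells had a median mean normalised count of 282 and those that rose 506, beside 286 and 381 over all listed genes. Per kilobase of transcript (median protein-coding transcript length in GENCODE M21), the most abundant members were Arf4 at 1668, Tmed5 at 1112 and Sec11c at 1099 normalised counts per kb, and the least abundant was Rab3gap1 at 30.7. Rab5a stood at 105 normalised counts per kb, beside 52.9 for Rab5c and 69.2 for Rab21. By this measure the members with the largest decreases ranked low to middling among the 39: Tmed7 at 18, Arl2bp at 24, Rab5a at 28 and Vps35 at 32.

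Of 285 protein-coding genes in GENCODE M21 whose symbols match the rule, 13.7% were listed in the CD11c-low table. The share over all protein-coding genes was 5.70%. Which genes the authors tested is not known, and many genes are not expressed in eosinophils, so these shares have no test and no reading as enrichment. By family, 11 of 69 genes named Rab were listed, 6 of 27 named Arl, 3 of 6 named Arf, 4 of 35 named Vps and 2 of 30 named Snx. Also listed were 3 of 15 named Stx, 1 of 7 named Stxbp, 3 of 11 named Tmed, 4 of 29 named Sec and 2 of 8 named Cop.

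In CD11c-high eosinophils 4 trafficking genes rose and 1 fell, beside 54.1% higher and 45.9% lower in that table as a whole. Snx20 rose by 0.50 ± 0.27 (s-value 0.00224, mean normalised count 439) in the authors' deposited table and was the one member there with an s-value under 0.01, where 22.1% of the table reached it. Stx11 rose by 0.23 ± 0.17 (s-value 0.0332, mean normalised count 1251) in the authors' deposited table. Rab20, a Rab of phagosome maturation, rose by 0.19 ± 0.13 (s-value 0.0298, mean normalised count 688), and the p24 cargo receptor gene Tmed10 by 0.25 ± 0.19 (s-value 0.0338) in the authors' deposited table. Tmed7 fell by 0.30 ± 0.27 (s-value 0.0406, mean normalised count 198) in the authors' deposited table. Rab20 and Tmed10 are not in the CD11c-low table, and Rab5a, Vps35 and Arf5 are not in the CD11c-high table; this does not show that their change differs between subsets, which was not tested.

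Snx20, Stx11 and Tmed7 were listed in both tables, which is 7.69% of the members in the CD11c-low table (7.39% of all its genes) and 60.0% of those in the CD11c-high table (57.6% of all its genes). Each had the same sign in both subsets, as did all other genes listed in both tables except Cdkn2aipnl and Ighv2-9-1. For Snx20 the CD11c-high minus CD11c-low difference in log2 fold change was -0.09 ± 0.33, with a 95% interval of -0.74 to 0.55 (normal test, two-sided, Benjamini-Hochberg adjusted over the 99 genes in both tables, adjusted p = 0.970). For Stx11 the difference was -0.24 ± 0.22 (interval -0.67 to 0.18, adjusted p = 0.813 by the same normal test). For Tmed7 it was 0.64 ± 0.42 (interval -0.19 to 1.47, adjusted p = 0.630 by the same normal test), a difference larger than its standard deviation whose interval includes 0. Of the 99 genes, 3 had an adjusted p under 0.05 by the same normal test, none of them a member. The intervals are wide and do not show that the subsets change alike. The test treats the subsets as independent and both estimates are shrunken. It also covers only genes called in both subsets, a selection that can favour genes that change alike. High adjusted p-values are therefore not read as a lack of difference.

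**Figure D3:**
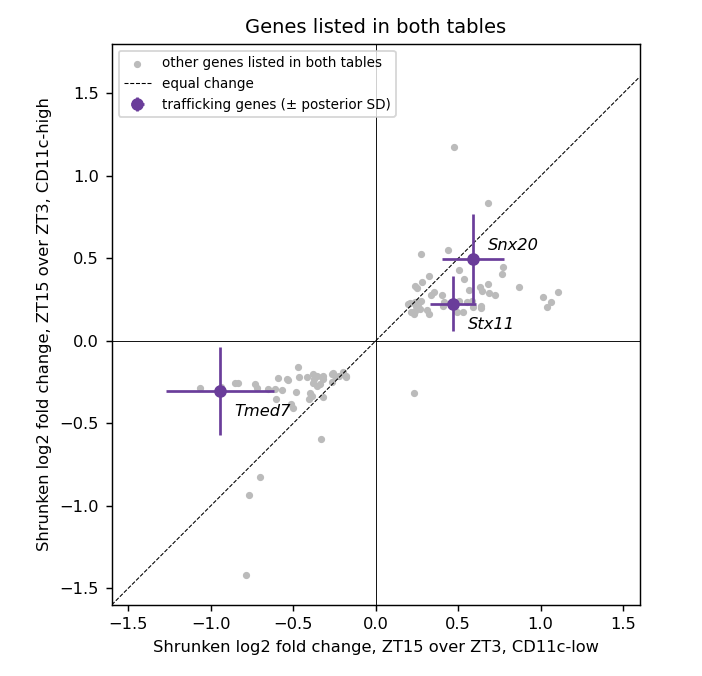
Shrunken log2 fold change at ZT15 over ZT3 in CD11c-low (x axis) and CD11c-high (y axis) cells for the 99 genes listed in both tables, 2 of which lie beyond the axes; bars on the trafficking genes are posterior standard deviations and the dashed line marks equal change. Snx20 lies near the line, and Stx11 (0.47 and 0.23) and Tmed7 (-0.94 and -0.30) lie nearer to 0 in CD11c-high cells. Most of the genes drawn also lie nearer to 0 in CD11c-high cells. The differences of Stx11 and Tmed7 were not called, and of all 99 genes only 3 were.

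Regulators and partners that the symbols do not match were taken from a list of the wider machinery. Of 22 genes of that list in the CD11c-low table, 12 rose and 10 fell, a split close to that of the table. The smallest s-values among those that rose were those of Pdcd6 (0.70 ± 0.18, s-value 4.99e-06), a calcium-binding protein that works with ESCRT and COPII components, and Preb (0.53 ± 0.19, s-value 3.93e-04), which activates the COPII GTPase Sar1, in the authors' deposited table. The sorting receptor gene Sorl1, whose product retromer retrieves, rose by 0.39 ± 0.17, and Dennd3, an activator of Rab12, by 0.48 ± 0.22 in the authors' deposited table. Those that fell with the smallest s-values were Dennd4a (-0.26 ± 0.13), an activator of Rab10, Acap2 (-0.43 ± 0.26), which inactivates Arf6, the exocyst subunit gene Exoc5 (-0.52 ± 0.33) and the lipid kinase gene Pikfyve (-0.37 ± 0.26) in the authors' deposited table. Rabgef1 (Rabex-5), which activates Rab5 and Rab21, fell by 0.29 ± 0.22, and Rin3, another activator of Rab5-family proteins, rose by 0.44 ± 0.26 in the authors' deposited table. Both were picked after their values were seen. Within the COPII route the activator Preb rose while the cargo adaptor Sec24a fell. The kinesin heavy chain gene Kif5b was the one gene of this list in the CD11c-high table, where it rose by 0.23 ± 0.15, beside 0.21 ± 0.17 in the CD11c-low table, in the authors' deposited table.

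**Figure D4:**
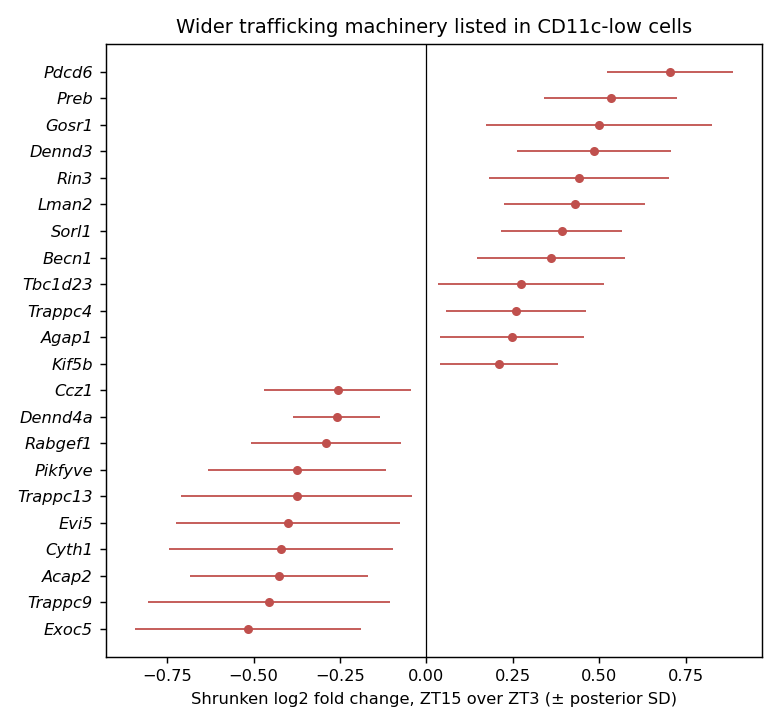
Shrunken log2 fold change at ZT15 over ZT3 (x axis, points) with its posterior standard deviation (bars) for the 22 genes of the wider trafficking list in the CD11c-low table (y axis). Genes lie on both sides of 0, from Exoc5 at -0.52 to Pdcd6 at 0.70.

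The promoters of the members were read for short motifs. RefSeq promoter sequences (build GRCm38.p6, another build than the GRCm39 of the submitters' processing notes) were found by symbol for 28 of the 41 genes, and the 250 bases before each start site were searched on both strands. No entry was found for Arf6, Arl5c, Arl6ip5, Arl8b, Rab11fip1, Rab18, Rab2a, Rab44, Sec11c, Snx20, Tmed7, Vps28 and Vps35. The E-box CACGTG, which CLOCK-BMAL1 and many other factors can bind, was in 8 of 28 members and in 6.86% of all 27025 genes with an entry. Within the CD11c-low table it was in 2 of the 14 members that rose and 4 of the 12 that fell, beside 10.5% and 12.2% of all its genes that rose and fell. Its extended form GTCACGTGAC, which contains CACGTG and is known from promoters of lysosomal genes, was in 3 of 28 members (Rab5a, Rab21 and Vps26a), in 0.270% of all genes and in 0.760% and 2.06% of the higher and lower genes. All 3 were listed as lower at ZT15. The cAMP response element TGACGTCA was in Rab5a and Cope (1.77% of all genes, and 2.66% and 4.54% of the higher and lower genes), and the D-box TTATGTAA in Vps36 (0.977% of all genes, and 0.570% and 0.206% of the higher and lower genes). A further 4 motifs were searched. AGGTCA was in 2 of 28 members (15.8% of all genes, and 12.0% and 13.4% of the higher and lower genes). TGACG, which overlaps TGACGTCA, was in 16 (19.8% of all genes, and 35.0% and 34.4%). CCAAT was in 14 (37.5% of all genes, and 41.4% and 39.4%) and CCGGAAG in 1 (7.83% of all genes, and 17.7% and 18.6%). A match is a run of letters and not a binding site, no test was run, and the motifs were chosen with the gene list known.

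Shown here are the 250 bases before the start site, 5′ to 3′, for the 6 members of the CD11c-low table whose promoter holds CACGTG, with matches to CACGTG, GTCACGTGAC or TGACGTCA in capitals. The first 4 genes fell and the last 2 rose. Vps26a has a pair of start sites, each with a GTCACGTGAC of its own, and the outer one is shown.
Rab5a, chr17:53478984-53479233, + strand: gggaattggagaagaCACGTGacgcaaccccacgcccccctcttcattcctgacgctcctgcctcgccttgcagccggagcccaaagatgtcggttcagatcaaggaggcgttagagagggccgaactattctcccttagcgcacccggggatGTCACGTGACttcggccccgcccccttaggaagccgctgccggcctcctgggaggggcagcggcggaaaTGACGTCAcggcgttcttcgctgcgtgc
Rab21, chr10:115315592-115315841, - strand: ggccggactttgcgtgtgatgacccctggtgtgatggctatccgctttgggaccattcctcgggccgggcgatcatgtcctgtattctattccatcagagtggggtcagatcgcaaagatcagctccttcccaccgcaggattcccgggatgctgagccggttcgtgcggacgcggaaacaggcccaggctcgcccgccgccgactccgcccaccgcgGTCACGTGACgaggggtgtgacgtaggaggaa
Vps26a, chr10:62486806-62487055, - strand: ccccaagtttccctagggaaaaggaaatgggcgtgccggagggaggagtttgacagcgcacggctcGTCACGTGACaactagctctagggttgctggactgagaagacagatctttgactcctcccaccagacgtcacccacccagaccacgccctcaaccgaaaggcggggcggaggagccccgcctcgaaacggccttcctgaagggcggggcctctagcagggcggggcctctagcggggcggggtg
Arf5, chr6:28423354-28423603, + strand: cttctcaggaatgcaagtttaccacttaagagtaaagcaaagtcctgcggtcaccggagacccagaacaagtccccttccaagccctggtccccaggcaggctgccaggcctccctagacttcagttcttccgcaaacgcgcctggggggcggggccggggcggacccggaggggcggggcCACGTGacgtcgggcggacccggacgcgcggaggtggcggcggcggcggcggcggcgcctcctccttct
Sec62, chr3:30792626-30792875, + strand: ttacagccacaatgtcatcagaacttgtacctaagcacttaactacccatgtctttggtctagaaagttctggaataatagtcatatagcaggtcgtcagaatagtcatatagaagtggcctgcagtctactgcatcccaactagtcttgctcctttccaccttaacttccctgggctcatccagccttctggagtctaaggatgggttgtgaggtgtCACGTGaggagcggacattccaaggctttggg
Stxbp2, chr8:3630859-3631108, + strand: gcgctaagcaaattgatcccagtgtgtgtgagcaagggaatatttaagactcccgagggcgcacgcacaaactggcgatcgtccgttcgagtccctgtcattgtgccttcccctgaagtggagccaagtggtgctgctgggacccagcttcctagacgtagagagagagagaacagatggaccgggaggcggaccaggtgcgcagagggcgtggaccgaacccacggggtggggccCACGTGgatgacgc
Counted from the start site, the GTCACGTGAC of Rab5a begins at -97, that of Rab21 at -32 and those of Vps26a at -153 and -184, each from its own start site. Rab5a holds a further CACGTG that begins at -235 and a TGACGTCA that begins at -28. The inner start site of Vps26a, not shown, also has a further CACGTG, which begins at -175. In Arf5 the CACGTG begins at -69, in Sec62 at -32 and in Stxbp2 at -14; none of these is a full match to the extended form.

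The labelled cell type was checked against markers as far as genes were listed. Of 12 eosinophil markers, Siglecf, Alox15, Csf2rb and Adgre1 were in the CD11c-low table, at mean normalised counts of 1633 to 4887, and none was in the CD11c-high table; Itgax, which encodes CD11c, was in neither. Siglecf (0.23 ± 0.13), Alox15 (0.26 ± 0.14) and Csf2rb (0.33 ± 0.16) were higher at ZT15 and Adgre1 (-0.29 ± 0.14) was lower in the authors' deposited table. Among 33 markers for other kinds of cell, 5 were listed in the CD11c-low table and none in the CD11c-high table. Cd68 (0.52 ± 0.30, mean normalised count 143) and Ighm (0.24 ± 0.20, mean normalised count 522) were higher in the authors' deposited table. Gzma, a granzyme gene of T and NK cells, was also higher (20.99 ± 3.33, s-value 3.83e-07, mean normalised count 30.4). Cd74 (-0.49 ± 0.33, mean normalised count 878) and Krt18 (-0.35 ± 0.24, mean normalised count 159) were lower. For CD11c-low cells 14 immunoglobulin segments were also listed, 8 higher and 6 lower, with changes of 20.5 to 26.9 in size on the log2 scale, and 9 were listed for CD11c-high cells, in the authors' deposited table. Fitted values of that size are not read as folds. No mast cell or neutrophil marker was listed in either. The levels of unlisted markers were not analysed here, and the part of other cells in the changes above was not tested.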

How the data were processed

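RNA was measured in 16 libraries of sorted duodenal eosinophils, 4 per CD11c subset and time. STAR 2.7.10b, DESeq2 1.38.3 and GRCm39 are named, without roles, in the submitters' processing notes; counting, strand, annotation and shrinkage method are not stated there or in the labels, so overlapping genes cannot be told apart. Per the file headers, the authors deposited a mean normalised count per gene (a signal: counts divided by size factors and averaged). They also deposited log2 fold changes with standard errors, and s-values, the counterpart of a q-value for the sign. Reading the changes as shrunken and the errors as posterior standard deviations is an inference that the headers do not state. Only genes with an s-value under 0.05 are listed.

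Genes were matched by symbol and counted by direction with SciPy 1.17.1, NumPy 2.4.6 and pandas 2.3.3 under Python 3.11.15. The false sign rate of each gene was recovered from successive s-values. The difference between subsets was tested as stated in the text. Both calculations were tested on simulated data. For the difference test the simulated errors were neither shrunken nor selected, and the planted differences were larger than those of the members. That simulation thus does not show how the test performs on the deposited values. Log2 fold changes with standard deviations were given for all 41 members and for up to 4 genes per direction of the wider list. Rabgef1, Rin3 and the CD11c-low value of Kif5b were given besides. S-values were added for members in both tables, those with an s-value under 0.01 and the extremes of each role. Some other members, such as Rab5c, Rab21 and Vps26a, also have one, picked outside this rule. Mean normalised counts were given for some members only. The members and lists were chosen with earlier results of these data known. Alternatives were a stricter s-value (0.01), a gene's own false sign rate under 0.05, a mean normalised count of at least 50, leaving out genes that match by name only, and correlated errors between tables.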

Additional observations from a re-analysis of the deposited data

How the results depend on the processing

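No paired analysis was possible because the tables hold no value of any single library; for the same reason no library could be left out. No alternative here can turn a direction, since each selects among deposited values. With an s-value under 0.01, the CD11c-low counts were 9 higher and 10 lower, the CD11c-high counts 1 higher and 0 lower, and 1 gene, Snx20, was in both tables. Over all listed genes that limit left 273 higher and 245 lower in CD11c-low cells, and 24 and 14 in CD11c-high cells. With the false sign rate of the gene itself under 0.05, the CD11c-low counts were 10 higher and 14 lower, the CD11c-high counts 1 and 0, and 1 gene was in both tables. Over both directions, 24 of the 39 CD11c-low members passed this limit, beside 706 of all 1340 listed genes. In CD11c-high cells 1 of 5 members passed, beside 78 of 172 listed genes. The directions of all genes passing this limit were not counted. The smaller counts of members follow from the stricter limits. When only genes with mean normalised counts of 50 or more were kept, or without the 6 genes that match by name only, each count stayed within 1.5 times its value. With a correlation of 0.5 between the errors of the tables, the subset differences of Snx20, Stx11 and Tmed7 had adjusted p of 0.928, 0.359 and 0.178 (normal test), so none was called. With independent errors, 3 of all 99 genes in both tables were called. Depth is unknown, so no limit from counting could be set.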

Other observations

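Transcript length and base composition differed between the directions in CD11c-low cells. Median transcript length in GENCODE M21 was 2250 nt for the members that fell and 1651 nt for those that rose, beside 2306 and 1778 nt over all listed genes with a value. Median GC content was 49.3% for the members that fell and 50.5% for those that rose, beside 47.7% and 50.7% over all listed genes. In the CD11c-high table the medians over all listed genes ran the other way for length, 1484 nt for those that fell and 2440 nt for those that rose. Whether length or GC content has a part in the changes was not tested.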
